A study of Danio rerio with 6 samples.

Results

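The tubulin genes described here are the 10 rows of the deposited expression table whose gene name is tuba1a, tuba1b, tuba1c, tuba8l, tuba8l2, tuba8l3, tuba8l4, tubb2b, tubb4b or tubb5, out of 21837 rows with a gene name. They comprise 7 alpha-tubulin and 3 beta-tubulin genes, and each name has 1 row. The RNA was taken from the GFP+ cells of Tg(fli1a:eGFP) embryos of the zebrafish, aged 28 hours post fertilization, in which regulatory sequence of the endothelial gene fli1a drives green fluorescent protein, as background also in some blood and pharyngeal arch cells. One group of 3 libraries carried a control MO and the other group of 3 a clec16a MO (a morpholino, an antisense oligomer that blocks translation or splicing), and all 6 carried the transgene. The cells were not cultured, and the labels give neither the gate, nor the mode of action of the morpholino, nor the clutch behind each library. The p-values therefore cover the spread between these libraries alone, which may be technical.

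Microtubules are hollow polymers of a dimer of alpha- and beta-tubulin, and vertebrate genomes hold several genes for each. The encoded isotypes are nearly alike in their bodies and differ mostly in their short C-terminal tails, which carry the marks that motors and microtubule-binding proteins read. New tubulin is folded with the help of prefoldin, the chaperonin CCT and the tubulin cofactors, and cells also control the amount of tubulin mRNA: when free dimers are in excess, TTC5 binds the emerging N-terminus of tubulin on the ribosome and the mRNA is degraded.

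Values are FPKM as deposited (fragment numbers divided by transcript length and by the size of the library), which allow levels to be compared between genes, and whose read depth is unknown. Differences were tested on log2(FPKM + 1) with limma over the 12153 rows with a mean of at least 1 FPKM, with Benjamini-Hochberg adjustment over all of them and a threshold of 0.05. The groups stood far apart across the table: 81.3% of tested genes passed the threshold, 3239 higher and 6638 lower in the clec16a MO libraries, and the median log2 difference was -0.66. When libraries were centred on their medians, the counts were 4819 higher and 4632 lower, and the median difference was 0.03. With quantile normalization they were 4614 higher and 4835 lower, and the median difference was -0.04. List counts given below after either rescaling are to be read beside these counts among 12153 rows, not beside the shares on the scale reported. Rows above 0 numbered 19250 to 19317 in the control MO and 15153 to 15871 in the clec16a MO libraries. The targeted gene clec16a read 14.4, 14.1 and 14.3 FPKM in the control MO libraries and 5.68, 5.57 and 4.24 FPKM in those with the clec16a MO.

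In the clec16a MO libraries 8 of the 10 tubulin genes fell, by a log2 difference of 2.26 to 4.85 in size, while tuba8l and tubb2b, the most abundant alpha and beta member in these libraries, were slightly higher. All 10 passed the filter on low values. tuba1a, tuba1c and tuba8l2 passed it only through the control MO group, as they read below 1 FPKM in every clec16a MO library. For these genes the filter itself required a high control level, so passing it is no support for their falls. The same limit applies to each tested gene named below that read under 1 FPKM in every library of 1 group. A call lower was made for 54.6% of all tested genes and a call higher for 26.7%, so the directions alone do not set the tubulin genes apart. The falls lay in the lower part of the range of all genes: the share of tested genes with a still lower difference ran from 1.14% for tuba1a to 13.6% for tubb5. On log2(FPKM + 1) a gene with a low control level cannot fall far, and no comparison with genes of like level was made. The median log2 difference was -3.69 over the 10 tubulin genes. In bulk libraries of this kind, fewer cells of a type and less RNA per cell cannot be told apart.

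**Figure D1:**
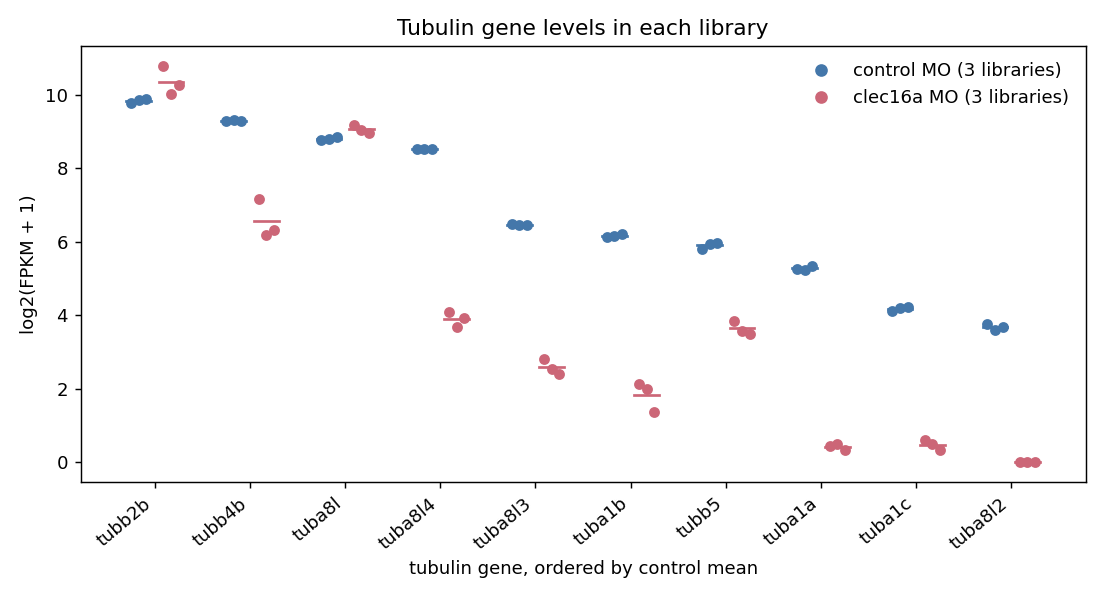
Levels of the 10 tubulin genes as log2(FPKM + 1) on the vertical axis, with 1 point per library (control MO blue, clec16a MO red) and a line at each group's mean; genes are ordered by their control mean. For tubb2b and tuba8l the red points lie slightly above the blue ones, and for the other genes they lie well below, down to 0 for tuba8l2.

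The alpha-tubulin genes tuba1a, tuba1b and tuba1c fell together. In the RefSeq gene table of assembly GRCz12tu, used here for names and gene order only, they are direct neighbours among protein-coding genes, in the order tuba1c, tuba1a, tuba1b. tuba1a, known in zebrafish for its expression in the developing and regenerating nervous system, read 37.4, 36.3 and 39.4 FPKM in the control MO libraries and 0.350, 0.408 and 0.262 FPKM in those with the clec16a MO. Its mean was 111-fold lower (log2 difference -4.85, SE 0.11, limma adjusted p = 1.2e-07). This was the largest fall of a member as reported, but not with quantile normalization, where tuba8l4 stood at -4.56 and tuba1a at -4.30, or with a pseudocount of 0.1, where tuba8l2 stood at -6.90 and tuba1a at -6.44. tuba1b, the most abundant of these neighbours, read 69.0, 70.9 and 72.3 FPKM and then 3.33, 2.96 and 1.59 FPKM. The control libraries lay within a few FPKM of each other and far above the highest clec16a MO library (26.9-fold lower mean, log2 difference -4.34, SE 0.20, limma adjusted p = 1.2e-06). tuba1c went from 16.1, 17.2 and 17.6 FPKM to 0.506, 0.403 and 0.250 FPKM (43.9-fold lower mean, log2 difference -3.70, SE 0.13, limma adjusted p = 4.2e-07). In this cluster no clec16a MO library overlapped the control libraries, as was so for 56.1% of all tested genes in this direction and for 27.6% in the other. Alpha-tubulin coding sequences are closely alike, and how reads shared by several genes were assigned is not stated in the labels, so the separate values of these and the following alpha genes are uncertain. As the beta isotypes are also nearly alike, the same limit applies to the beta genes and to the shares and ratios of members below.

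The genes named after alpha-tubulin 8 in the deposited table did not move as one. tuba8l4, in the control MO libraries nearly as abundant as tuba8l, read 367, 368 and 366 FPKM there and 15.9, 11.8 and 14.1 FPKM in those with the clec16a MO. That is a 26.3-fold lower mean (log2 difference -4.63, SE 0.11, limma adjusted p = 1.4e-07). tuba8l3 fell from 88.4, 85.9 and 86.8 FPKM to 5.98, 4.83 and 4.30 FPKM, a 17.3-fold lower mean (log2 difference -3.88, SE 0.12, limma adjusted p = 3.1e-07). tuba8l2, the lowest of the 10 in the control MO libraries at 12.6, 11.1 and 11.8 FPKM, was listed at 0 throughout the clec16a MO group. A value of 0 in a table of this kind can be a failed estimate, so no fold is given, and the count of tuba8l2 among the falls rests on that value. With 0 on one side, the size of its log2 difference depends on the pseudocount: -3.68 as reported and -6.90 with a pseudocount of 0.1. tuba8l, which the RefSeq table lists as a synonym of tuba5, read 438, 441 and 458 FPKM in the control MO libraries and 579.7, 528 and 495 FPKM in those with the clec16a MO. The groups did not overlap, but the gap was small: the mean was 1.199-fold higher (log2 difference 0.26, SE 0.09, limma adjusted p = 0.026).

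That rise of tuba8l depended on the processing. It was 0.95 with median centring (limma adjusted p = 3.0e-05), 0.04 with quantile normalization (limma adjusted p = 0.72), and missed the threshold without the mean-variance trend (limma adjusted p = 0.056) and without control MO replicate 1, 2 or 3 (limma adjusted p = 0.097, 0.094 and 0.062). Every one of the 15 alternatives gave a difference above 0, and 9 passed the threshold.

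Among the beta-tubulin genes, tubb4b and tubb5 fell and tubb2b was higher. tubb4b, whose human counterpart is widely expressed and is a main beta-tubulin of cilia, read 626, 629 and 617 FPKM in the control MO libraries and 142, 71.6 and 79.3 FPKM in those with the clec16a MO. The mean was 6.40-fold lower (log2 difference -2.73, SE 0.24, limma adjusted p = 3.0e-05), and the first clec16a MO library stood at nearly double the level of the others. tubb5 went from 55.1, 59.9 and 60.9 FPKM to 13.5, 10.9 and 10.3 FPKM, the smallest of the falls (5.08-fold lower mean, log2 difference -2.26, SE 0.12, limma adjusted p = 2.5e-06). tubb2b, whose human counterpart is best known from developing neurons, was the highest tubulin gene in each library. It read 880.4, 924 and 943 FPKM in the control MO libraries and 1767, 1029 and 1226 FPKM in those with the clec16a MO, again with the first clec16a MO library highest. Its mean was 1.46-fold higher, with groups that did not overlap but a spread among the clec16a MO libraries nearly as large as the difference (log2 difference 0.51, SE 0.19, limma adjusted p = 0.038). With clec16a MO replicates 2 and 3 alone, without replicate 1, the difference was 0.29 (limma adjusted p = 0.021). The call ended with quantile normalization (0.30, limma adjusted p = 0.10), with no filter on low values (limma adjusted p = 0.067), and without control MO replicate 1, 2 or 3 or clec16a MO replicate 3 (limma adjusted p = 0.11, 0.093, 0.086 and 0.065). With median centring the difference was 1.204 (limma adjusted p = 0.00053).

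**Figure D2:**
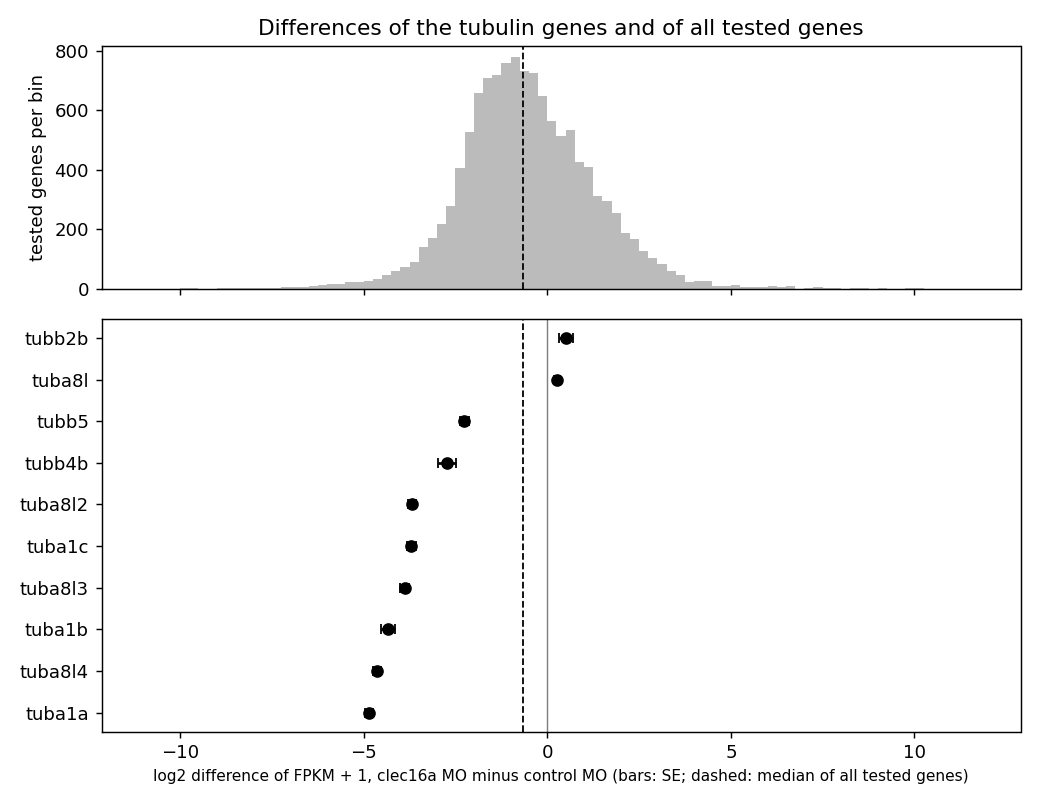
Upper panel, the number of tested genes per 0.25-wide bin of the log2 difference (clec16a MO minus control MO); lower panel, the difference of each tubulin gene with its SE, on the same horizontal axis, and a dashed line at the median of all tested genes, -0.66. The tubulin genes that fell lie from -4.85 to -2.26, left of the bulk of genes, and tuba8l and tubb2b lie at 0.26 and 0.51.

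The mixture of isotypes was narrower in the clec16a MO libraries, a measure that does not depend on how a library is scaled. tuba8l made up 42.6%, 42.8% and 43.5% of the summed alpha-tubulin FPKM in the control MO libraries and 95.7%, 96.3% and 96.0% in those with the clec16a MO. Over the same libraries tuba8l4 went from 35.4% ± 0.532 to 2.51% ± 0.310 (SD, n = 3), and the tuba1 cluster members tuba1a, tuba1b and tuba1c from 3.64%, 6.82% and 1.64% to 0.0610%, 0.466% and 0.0686% on average. tubb2b made up 57.3% ± 0.904 of the summed beta-tubulin FPKM in the control MO libraries and 92.6% ± 0.634 in those with the clec16a MO, and tubb4b 39.1% ± 1.02 and 6.61% ± 0.693. tuba8l exceeded tuba8l4 by a ratio of 1.19, 1.197 and 1.25 in the control MO libraries and of 36.4, 44.6 and 35.0 in the clec16a MO libraries. The ratio of tubb2b to tubb4b was 1.41, 1.47 and 1.53 and then 12.5, 14.4 and 15.5. For these ratios, chosen after their values were seen, the groups did not overlap (exact permutation p = 0.1 for each, two-sided, the smallest that 3 against 3 libraries can give).

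**Figure D3:**
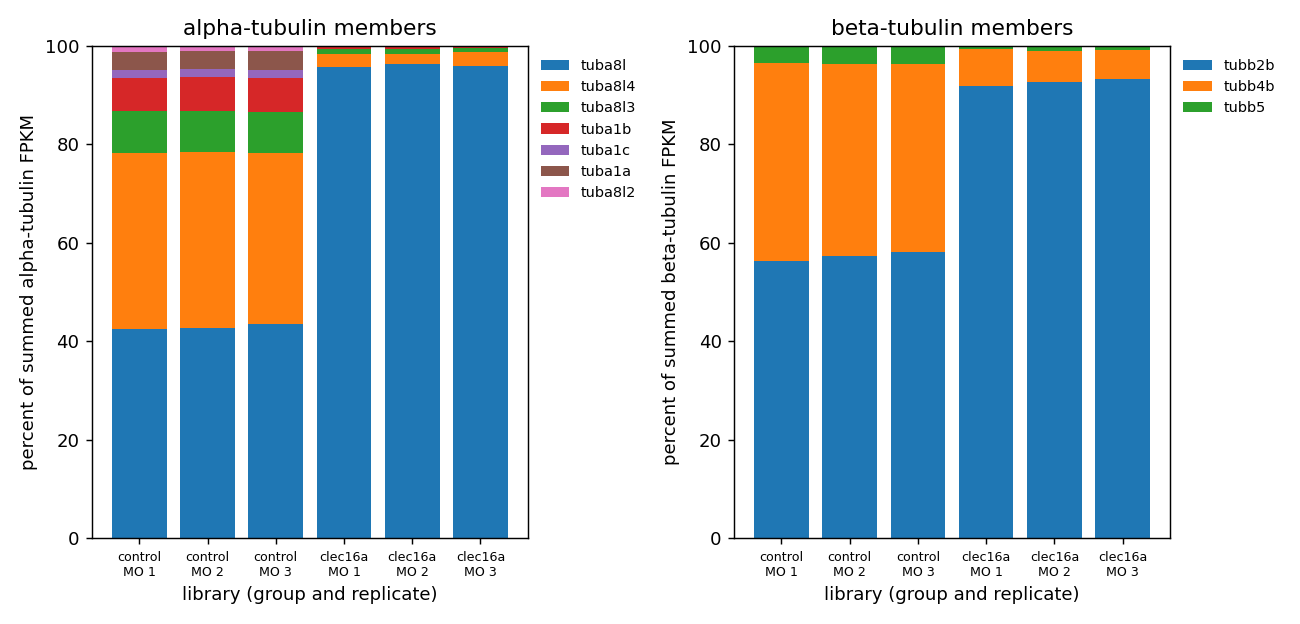
Percent of the summed FPKM of the alpha-tubulin members (left) and beta-tubulin members (right) taken by each gene, with 1 stacked bar per library. tuba8l takes 42.6% to 43.5% of the alpha sum in the control MO libraries and 95.7% to 96.3% in the clec16a MO libraries. tubb2b takes 56.4% to 58.2% of the beta sum in the control MO libraries and 91.9% to 93.2% in the clec16a MO libraries.

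Summed over the members, alpha-tubulin was lower and beta-tubulin overlapped between the groups. The alpha sum was 1036 ± 13.05 FPKM in the control MO libraries and 556 ± 45.9 FPKM in those with the clec16a MO (SD, n = 3), or 0.208% ± 0.00606 and 0.106% ± 0.00687 of all FPKM. The beta genes together took 0.310%, 0.322% and 0.332% of all FPKM in the control MO libraries and 0.352%, 0.223% and 0.252% in the clec16a MO libraries, where the first library was above all controls and the others were below them. The ratio of the alpha sum to the beta sum was 0.658, 0.639 and 0.649 in the control MO libraries and 0.315, 0.493 and 0.392 in the clec16a MO libraries, with no overlap. No test was made on these sums.

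The order of levels changed at few places. In the control MO libraries it ran tubb2b, tubb4b, tuba8l, tuba8l4, tuba8l3, tuba1b, tubb5, tuba1a, tuba1c and tuba8l2, with no overlap between neighbours in that order. In the clec16a MO libraries tuba8l stood above tubb4b and tubb5 above tuba8l3, while tuba8l4 and tubb5 overlapped, as did tuba1c and tuba1a. By rank among all rows, tubb2b stood between 51 and 61 in the control MO libraries and between 26 and 48 in the clec16a MO libraries, and tuba8l between 144 and 165 and between 136 and 170. tuba1a went from ranks of 1852 to 2002 to ranks of 11716 to 12736.

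Genes outside the family with the most similar levels were found by the root mean square difference of log2(FPKM + 1) over the 6 libraries, a measure that takes in level and change alike. For tubb2b, the member with the largest called rise, these were arpc3, which encodes a subunit of an actin-nucleating complex (0.36), the thioredoxin gene TXN (0.40) and the dynein light chain gene dynll1 (0.45). arpc3 overlapped between the groups, at 810, 801 and 780 FPKM in the control MO libraries and 1141, 781 and 989 FPKM in those with the clec16a MO. TXN was higher in each clec16a MO library than in any control MO library. The level of dynll1 did not rise: its log2 difference was -0.32 (limma adjusted p = 0.056). For tuba1a, the member with the largest called fall on the scale reported, they were fubp3 (0.15), FP236630.1 (0.15) and the venous receptor gene ephb4a (0.17). ephb4a read 30.8, 32.8 and 34.2 FPKM in the control MO libraries and 0.301, 0.268 and 0.213 FPKM in those with the clec16a MO.

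Of the other tubulin genes, 9 symbols with 10 rows were in the table, all at far lower levels than tubb2b. gamma-tubulin, tubg1, which nucleates microtubules, rose from 10.2, 10.1 and 11.3 FPKM to 34.0, 32.6 and 35.2 FPKM (log2 difference 1.60, SE 0.10, limma adjusted p = 4.2e-06). tubb1, whose mammalian counterpart is the beta-tubulin of megakaryocytes and platelets, was listed at 0 throughout the control MO group, against 5.05, 3.09 and 1.63 FPKM with the clec16a MO. The centriolar delta-tubulin tubd1 rose from 2.83, 3.08 and 3.26 FPKM to 4.01, 4.81 and 7.61 FPKM (limma adjusted p = 0.025). Epsilon-tubulin, tube1, had 2 rows that went opposite ways, with means of 0.535 and 2.2002 FPKM in the tested row (limma adjusted p = 0.0045) and of 1.19 and 0.285 FPKM in the row below the filter, so its direction is uncertain. tuba4l fell from 6.69, 7.52 and 7.10 FPKM to 5.15, 3.23 and 3.16 FPKM (log2 difference -0.76, SE 0.18, limma adjusted p = 0.0053). This fall missed the threshold after either rescaling, with a limma adjusted p of 0.71 with median centring and of 0.75 with quantile normalization. tuba2, tuba7l, tubb2 and tubb6 stayed below 1 FPKM in each library.

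Most genes in the list of prefoldin and tubulin cofactors, which held no gene of the chaperonin CCT, were higher. Of 13 tested folding genes, 9 rose, 3 fell and 1 missed the threshold, beside 26.7% higher and 54.6% lower over all tested genes; the median log2 difference was 0.97 against -0.66 over all genes. All 6 prefoldin genes, whose products carry new tubulin and actin to the chaperonin, were called higher, and were so too with median centring and quantile normalization. pfdn5 rose from 97.5 ± 4.49 to 754 ± 136 FPKM (log2 difference 2.92, SE 0.14) and pfdn6 from 30.7 ± 1.62 to 104 ± 2.73 FPKM. vbp1, a further prefoldin subunit, rose from 48.5 ± 2.41 to 129 ± 9.75 FPKM, and arl2, a small GTPase that works with the tubulin cofactors, from 18.4 ± 1.59 to 65.0 ± 10.9 FPKM (SD, n = 3; limma adjusted p of 2.1e-05 or less for each of these genes). The tubulin cofactor genes and arl2 were split: tbca, tbcb and arl2 rose, tbcc, tbcd and tbcelb fell, and tbce missed the threshold. Apart from arl2, these genes are named after their values were seen. tbcd, which encodes a cofactor that handles beta-tubulin, did not pass with quantile normalization (limma adjusted p = 0.83), and tbcelb turned to 0.40 there (limma adjusted p = 0.048).

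In the list of tubulin mRNA autoregulation, 4 genes were tested, of which 1 rose and 3 fell, beside 26.7% higher and 54.6% lower over all tested genes. After either rescaling, by median centring or quantile normalization, 1 was higher, 2 were lower and 1 did not pass. ttc5 rose from 3.82, 4.74 and 4.05 FPKM to 18.7, 14.4 and 12.96 FPKM (log2 difference 1.64, SE 0.16, limma adjusted p = 5.2e-05). cnot11, the subunit of the CCR4-NOT deadenylase complex through which tubulin mRNA is targeted, fell from 34.7, 38.3 and 37.1 FPKM to 11.5, 8.87 and 7.95 FPKM (log2 difference -1.87, SE 0.14, limma adjusted p = 1.3e-05). cnot1, the scaffold of that complex, fell from 4.45 ± 0.333 to 1.11 ± 0.579 FPKM (limma adjusted p = 0.00067). cnot10 fell from 9.03 ± 0.418 to 5.53 ± 1.53 FPKM (limma adjusted p = 0.011), but stood at 0.05 with median centring and at -0.02 with quantile normalization, where limma's adjusted p was 0.81 and 0.90.

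Among 10 tested genes for enzymes that modify tubulin, 1 rose, 8 fell and 1 missed the threshold, beside 26.7% higher and 54.6% lower over all tested genes. The list's median was -1.34. With median centring or quantile normalization 1 was higher, 5 were lower and 4 did not pass. hdac6, a tubulin deacetylase, fell from 5.17 ± 0.135 to 0.343 ± 0.197 FPKM, and atat1, the opposing alpha-tubulin acetyltransferase, from 3.202 ± 0.431 to 0.225 ± 0.0879 FPKM. Both read below 1 FPKM in every clec16a MO library, so they passed the filter on low values only through the control MO group. ttl, which adds the C-terminal tyrosine to alpha-tubulin, fell from 22.5 ± 0.820 to 5.22 ± 1.19 FPKM and the deglutamylase gene agbl5 from 6.21 ± 0.580 to 0.986 ± 0.531 FPKM (limma adjusted p of 7.8e-05 or less for these 4 genes). The gene that rose, named after its values were seen, was ttll12, from 1.005 to 6.46 FPKM on average.

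Nucleation genes went both ways on the scale reported. Of 7 tested genes of the gamma-tubulin ring complex, 3 rose, 2 fell and 2 did not pass, beside 26.7% higher and 54.6% lower over all tested genes. With median centring or quantile normalization 4 were higher, 0 were lower and 3 did not pass. Over all 12153 tested genes the counts were then 4819 higher and 4632 lower, or 4614 higher and 4835 lower. Beside tubg1, the small subunit gene mzt2b rose from 40.4 ± 0.666 to 77.3 ± 14.0 FPKM and tubgcp5 from 3.13 to 9.48 FPKM on average. The core subunit genes tubgcp2 and tubgcp3 fell from 4.41 ± 0.491 to 1.41 ± 0.578 FPKM and from 2.31 ± 0.139 to 0.770 ± 0.226 FPKM. Neither fall passed with median centring (limma adjusted p = 0.051 and 0.17) or with quantile normalization (limma adjusted p = 0.15 and 0.46). tubgcp3 stood at 0.12 with quantile normalization.

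Genes for proteins that bind or follow microtubules included many that fell. In the list of microtubule-binding proteins 1 of 10 rose and 8 fell, beside 26.7% and 54.6% of all tested genes; with quantile normalization 2 were higher, 5 lower and 3 did not pass. Those that fell included map7d1b, from 27.7 ± 1.73 to 2.89 ± 0.797 FPKM, map7d1a, from 7.97 ± 0.314 to 1.11 ± 0.223 FPKM, map2, from 6.19 ± 0.147 to 1.36 ± 0.332 FPKM, and eml2, from 2.84 ± 0.184 to 0.725 ± 0.0436 FPKM. The gene that rose, named after its values were seen, was map9, from 4.77 to 7.38 FPKM on average. The eml2 call ended with quantile normalization (limma adjusted p = 0.28). Of 9 plus-end genes 0 rose and 7 fell, and 7 were also lower with either rescaling; mapre2, an end-binding protein gene, dropped from a mean of 37.8 ± 4.85 to 0.747 ± 0.198 FPKM (log2 difference -4.47, SE 0.14, limma adjusted p = 3.5e-07). With median centring the other tested end-binding genes mapre1a and mapre1b, which had not passed, were called higher. With quantile normalization mapre1b stood at -0.20 (limma adjusted p = 0.18). mapre3b was below the filter on low values, and its log2 difference was -0.87 with no filter. clip2 fell from 6.36 ± 0.438 to 0.562 ± 0.175 FPKM and the polymerase gene ckap5 from 5.93 ± 0.334 to 0.525 ± 0.214 FPKM, while clip1a went from 1.99 ± 0.113 FPKM to 0, 0 and 0.0711 FPKM. eml2, mapre2, clip2, ckap5 and clip1a read below 1 FPKM in every clec16a MO library. They passed the filter on low values only through the control MO group. Of 2 tested stathmin genes, whose products bind free tubulin, stmn1a rose from 18.1 ± 1.01 to a mean of 68.0 ± 2.95 FPKM (log2 difference 1.85, SE 0.09, limma adjusted p = 1.6e-06), and stmn1b read 2.18 ± 0.359 and 5.04 ± 3.06 FPKM (limma adjusted p = 0.051). stmn1b passed with median centring (1.51, limma's adjusted p 0.0042) and quantile normalization (1.68, limma's adjusted p 0.00094). The table held 6 stathmin genes, and those below the filter are named here after their values were seen. Among them stmn2a, stmn2b and stmn4l were listed at 0 in each clec16a MO library. With no filter on low values their log2 differences were -1.38, -0.61 and -0.22, and that of stmn4 was 0.10.

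Of 7 genes that sever or shorten microtubules, 1 rose, 4 fell and 2 did not pass, near the 54.6% called lower among all tested genes, and with either rescaling 2 were higher and 3 lower. kif2c, a mitotic depolymerase gene, rose from 5.71 ± 0.142 to 39.9 ± 3.37 FPKM. The severing enzyme gene katna1 fell to 1.75 ± 0.375 FPKM from 9.37 ± 0.0504, and the spastin gene spast to 4.62 ± 0.288 FPKM from 13.4 ± 0.316. fign, a relative of spastin, read 1.76 and 0.340 FPKM on average and was called lower (limma adjusted p = 0.00080), but it missed the threshold with median centring (-0.37, limma's adjusted p 0.071) and stood at 0.03 with quantile normalization (limma's adjusted p 0.86). In cytoplasmic dynein and dynactin, 6 of 23 genes rose and 12 fell, shares close to the 26.7% and 54.6% of all tested genes. Median centring gave 11 higher and 8 lower, and quantile normalization 5 higher and 13 lower. Over all 12153 tested genes these settings gave 4819 higher and 4632 lower, and 4614 higher and 4835 lower. capzb, a capping protein subunit of dynactin and of actin filaments, fell from 484 ± 4.23 to 3.55 ± 2.23 FPKM, pafah1b1b from 48.9 ± 1.97 to 11.3 ± 0.498 FPKM and dctn4 from 16.3 ± 1.19 to 1.65 ± 0.190 FPKM, while the dynein light chain gene dynlrb1 rose from 131 ± 4.41 to 479.8 ± 53.5 FPKM (limma adjusted p of 2.5e-06 or less for these 4 genes).

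**Figure D4:**
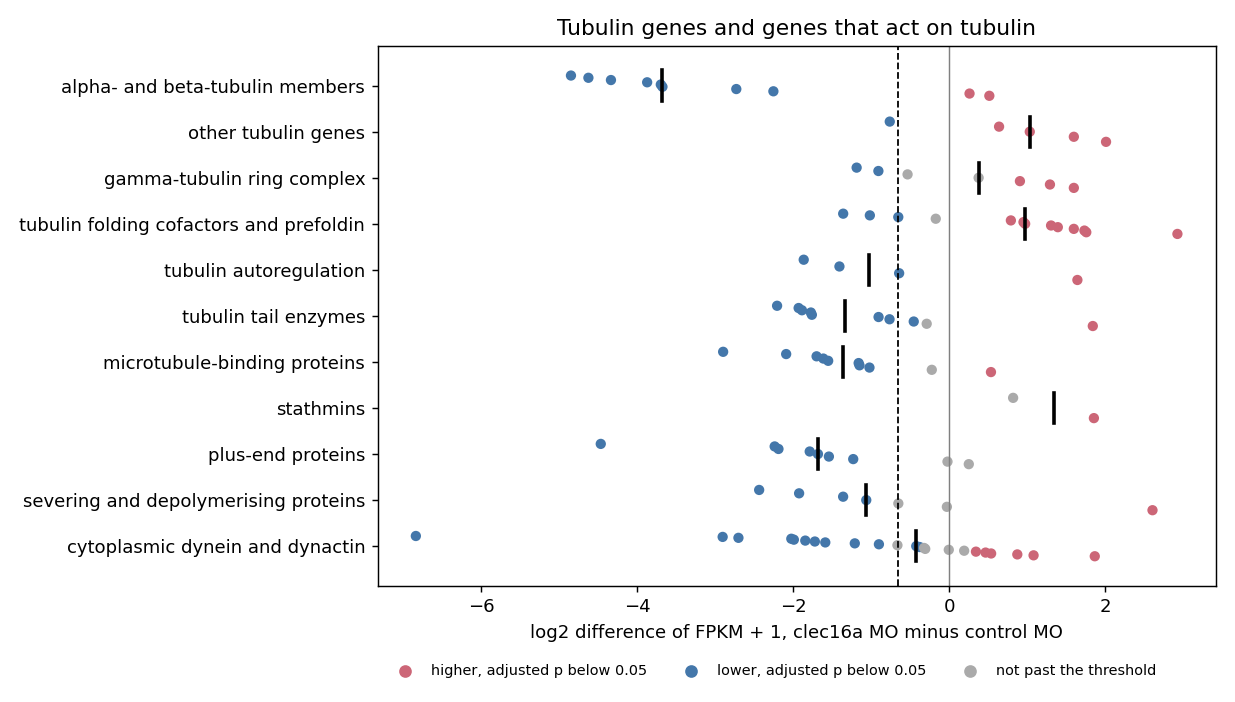
Log2 difference (clec16a MO minus control MO) of each tested gene in the tubulin lists, 1 row of points per list, with a black bar at the list's median, a grey line at 0 and a dashed line at the median of all tested genes, -0.66. The tubulin members have a median of -3.69 and the folding genes of 0.97.

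Marker genes of several cell types also differed between the groups, and their part in the differences of the tubulin genes was not tested. Their counts stand beside 26.7% of all tested genes called higher and 54.6% called lower. The table held 18 neuron marker genes, of which 5 were tested, 4 fell and 0 rose; their summed level was 52.5 to 56.1 FPKM in the control MO and 10.2 to 14.3 FPKM in those with the clec16a MO, and 7 were listed at 0 in each clec16a MO library. The most abundant of them, rtn1a and nova2, went from 21.6 ± 0.352 to 6.22 ± 0.731 FPKM and to 1.52 ± 0.206 FPKM from 18.9 ± 0.307. Some low members went the other way, such as snap25a, at 0.520 ± 0.163 and 0.974 ± 0.248 FPKM, gng3, at 0.648 ± 0.0581 and 2.17 ± 1.88 FPKM, and neflb, listed at 0 in each control MO library. Endothelial markers, 15 of 16 called lower, went from 5330 to 5382 FPKM in sum to 1333 to 1670 FPKM, with erg listed at 0 in each clec16a MO library. Among them fli1a, whose regulatory sequence drives the transgene, read 1096, 1083 and 967 FPKM in the control MO libraries. In those with the clec16a MO, fli1a read 109, 96.8 and 114 FPKM. Muscle and epidermis markers fell from 3739 to 3798 FPKM to 29.8 to 42.8 FPKM (18 of 18 rows called lower) and from 1378 to 1402 FPKM to 119 to 143 FPKM (14 of 14). Primitive erythroid markers rose from 2672 to 2997 FPKM to 33280 to 59100 FPKM (19 of 19 rows called higher), and myeloid markers from 23.7 to 25.6 FPKM to 1705 to 2454 FPKM (8 of 9 tested), with mpx, mpeg1.1, marco, mfap4 and csf1ra listed at 0 in each control MO library. marco and csf1ra stayed near 0 with the clec16a MO too, above 0 in 1 library each (0.102 and 0.190 FPKM). Among markers of dividing cells 5 rows rose, 9 fell and 3 did not pass, shares close to those of all tested genes. Their sums were 871 to 891 FPKM and 1029 to 1250 FPKM (control MO, then clec16a MO). Of 7 tested neural progenitor markers 1 rose and 5 fell (172.2 to 177.5 and 69.6 to 87.4 FPKM in sum). Of 4 tested thrombocyte markers 2 rose and 2 fell (360 to 385 and 210 to 242 FPKM). Most of these sums came from fli1b, at 365 and 98.3 FPKM on average, and nfe2, at 0.247 and 124 FPKM. On average gp1bb read 0.427 and 4.50 FPKM and itgb3b 6.28 and 1.61 FPKM, while itga2b and mpl stayed below 1 FPKM in each library. Ciliated cell markers overlapped in sum, at 22.1 to 25.2 and 21.7 to 37.3 FPKM, and of 3 tested 0 rose and 1 fell.

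**Figure D5:**
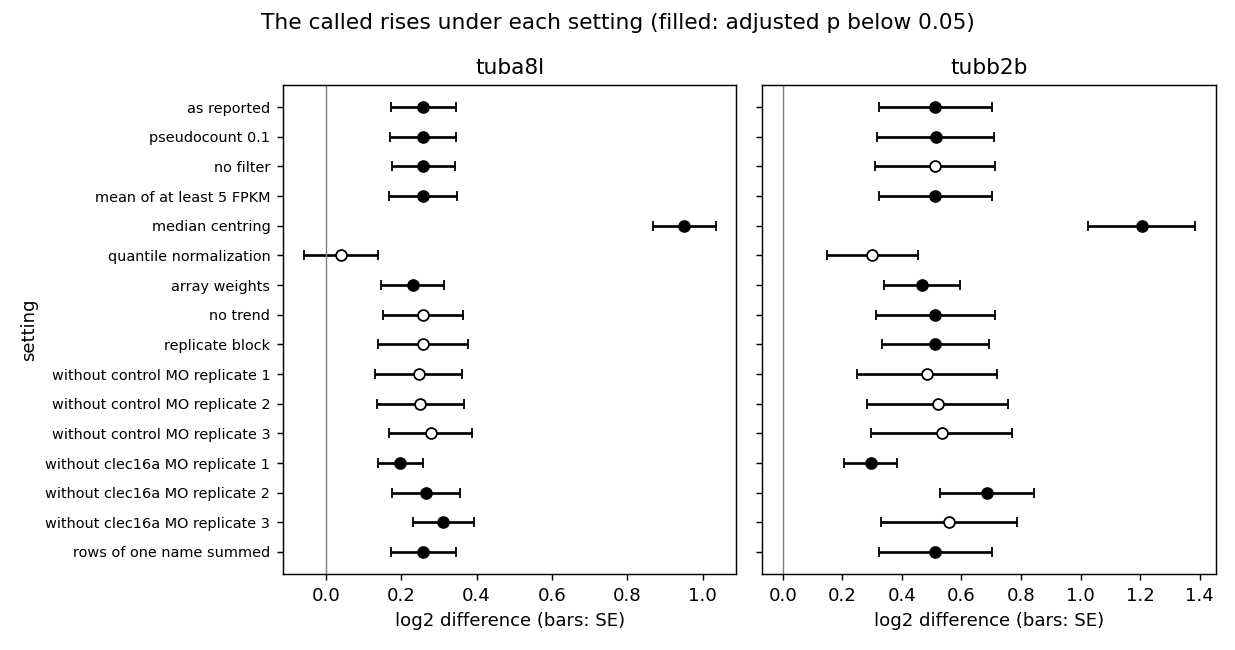
Log2 difference (clec16a MO minus control MO, with SE) of tuba8l and tubb2b as reported and under each of 15 alternative settings, filled where the limma adjusted p was below 0.05. Every point lies above 0, from 0.04 to 0.95 for tuba8l and from 0.29 to 1.204 for tubb2b, and 9 alternatives pass for each gene.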

How the data were processed

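The authors deposited 1 table of FPKM values with a column per library, whose names equal the sample titles. Per the submitters' processing notes, cutadapt 1.9, HISAT2 2.2.1 and StringTie 2.1.6 were used; their settings and the genome build are not stated there. Per the labels' protocols, cDNA was primed from poly(A) tails, extended by template switching, amplified and sequenced in paired ends. Since FPKM is a relative unit, growth of some genes lowers the others. Of 21853 rows, 16 named by a calendar date were left out. Depth is unknown: in low values, ratios between libraries of a group recurred (within 0.08%) in at most 28 of 6070 genes, so no reads were recovered.

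Differences on log2(FPKM + 1) were tested with limma 3.58.1 (R 4.3.3; mean-variance trend, group as the only term, two-sided) for rows with a mean of at least 1 FPKM, after a test on simulated data. Ratios were compared by an exact permutation test (SciPy 1.17.1). Named were all members, the other tubulin genes, up to 4 genes of each list by smallest adjusted p, clec16a and the 3 nearest genes of a pair of members. Gene lists are counted without a test. The values of 1 listed gene are not reported here. Members and lists were chosen with earlier results of these data known. Of the members, 9 matched a RefSeq symbol and 1 a synonym. Figures were drawn with matplotlib 3.10.9.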

Additional observations from a re-analysis of the deposited data

How the results depend on the processing

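The 8 falling tubulin genes were called lower under each of the 15 alternatives, with log2 differences from -6.90 (tuba8l2 with a pseudocount of 0.1) to -1.56 (tubb5 with median centring). The number of tubulin genes called higher was 2 as reported, 1 with no filter on low values, 1 without the mean-variance trend and 0 with quantile normalization; leaving out 1 library gave 0 to 2. The titles number the libraries 1 to 3 in both groups, but same-numbered libraries did not deviate together (r = 0.044, -0.018 and 0.005 across genes), so the number as a block is given here alone: with the replicate block 1 tubulin gene was called higher and 8 lower, and tuba8l missed the threshold (limma adjusted p = 0.082). Over all genes, 6638 were called lower, 10430 with no filter and 3472 with a minimum mean of 5 FPKM. With globin, mitochondrial genome and ribosomal protein genes left out of the total, the alpha genes took 0.232% and 0.124% (control MO and clec16a MO) and the beta genes 0.357% and 0.321%. The cause of these shifts was not tested, beyond the number of genes tested under each filter and the smaller total. The precision of low values is limited by a depth that FPKM does not give.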
